A study of Mus musculus with 15 samples.

Results

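The cathepsins described here are 10 genes of the papain-like cysteine and the aspartyl families, taken by their symbols (Ctsb, Ctsc, Ctsd, Ctse, Ctsh, Ctsk, Ctsl, Ctss, Ctsz and Ctsw) from the array annotation. Each symbol belonged to 1 of 35556 transcript clusters, the probe groups in which the array reports its signals, and the array annotation held 22008 gene symbols in all. Whole primary tumours of 5 mammary tumour lines were measured, with 3 tumours per line and 15 in all, 1 array each. The tumours grew in the 4th inguinal mammary fat pad of female mice, and were taken at 400 to 600 mm3. The labels give the age of the mice as 6 to 8 weeks, whereas the study's methods give an older range, so the age is not settled. 67NR (non-metastatic), 4T1.2 (metastatic) and EMT6.5 (metastatic) tumours were grown in BALB/c hosts, while EO771 (poorly metastatic) and EO771.LMB (metastatic) tumours were grown in C57BL/6 hosts. The paper also calls EO771 non-metastatic. The 67NR and 4T1 lines come from 1 mammary tumour of a mouse of BALB/c and C3H origin, and 4T1.2 is a single-cell clone of 4T1. EMT6.5 is likewise a single-cell clone, of EMT6. EO771 arose as a spontaneous C57BL/6 mammary tumour, and its cells were given an mCherry reporter by retrovirus. EO771.LMB was recovered from 1 lung nodule after repeated passage in the fat pad. For cell sorting the paper also used 67NR and 4T1.2 tumours with mCherry, and it does not say which arrayed tumours carried the reporter. None of the groups received a treatment.

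Cathepsins are proteases of the endosome and lysosome that are made as inactive precursors and are activated as the pH falls. The cysteine cathepsins use a cysteine in the active site and are held in check by cystatins and stefins, whereas Ctsd and Ctse use a pair of aspartates and are not inhibited by these proteins. In mammary tumours, cathepsins are made by the cancer cells and also by macrophages, fibroblasts and other stromal cells, and some are secreted into the matrix. In whole-tumour RNA, fewer cells of a type and less RNA per cell cannot be told apart.

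Promoter sequences were at hand for 6 of the 10 genes (RefSeq, GRCm38.p6; 250 bases before to 50 bases after the transcription start, 5′ to 3′ on the gene's strand), and those of Ctsb, Ctse, Ctsh and Ctsw were not analysed here. The following 5 are shown because Ctsc and Ctsk differed most between the host strains among these genes, Ctss lies next to Ctsk on chromosome 3, Ctsl moved the opposite way and Ctsd differed between 67NR and 4T1.2. The windows are chr7:88277835-88278134 (Ctsc, plus strand), chr3:95498960-95499259 (Ctsk, plus), chr3:95526536-95526835 (Ctss, plus), chr13:64370471-64370770 (Ctsl, minus) and chr7:142387778-142388077 (Ctsd, minus). Capitals mark matches to 3 short motifs on either strand, which are CACGTG, the E box at the core of the element shared by many lysosomal genes, a repeat of GAAA after any 2 bases, as in interferon-response elements, and GGGCGG, the GC box (CCGCCC on the opposite strand).
Ctsc: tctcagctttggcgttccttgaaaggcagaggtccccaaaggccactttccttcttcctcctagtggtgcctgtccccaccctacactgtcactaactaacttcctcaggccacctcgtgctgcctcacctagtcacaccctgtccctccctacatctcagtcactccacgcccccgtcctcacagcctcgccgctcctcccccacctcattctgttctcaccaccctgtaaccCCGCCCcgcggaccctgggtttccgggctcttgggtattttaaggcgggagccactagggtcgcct
Ctsk: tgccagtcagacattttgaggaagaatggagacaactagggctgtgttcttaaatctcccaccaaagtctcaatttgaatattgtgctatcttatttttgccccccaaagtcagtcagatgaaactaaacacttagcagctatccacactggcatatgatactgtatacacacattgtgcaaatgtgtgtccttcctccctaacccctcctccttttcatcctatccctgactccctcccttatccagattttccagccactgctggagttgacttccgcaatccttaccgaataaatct
Ctss: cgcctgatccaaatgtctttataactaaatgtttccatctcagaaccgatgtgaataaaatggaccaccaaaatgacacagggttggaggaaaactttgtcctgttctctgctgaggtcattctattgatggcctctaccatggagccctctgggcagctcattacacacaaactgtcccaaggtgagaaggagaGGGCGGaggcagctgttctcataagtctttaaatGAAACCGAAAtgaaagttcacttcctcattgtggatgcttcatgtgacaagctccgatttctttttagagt
Ctsl: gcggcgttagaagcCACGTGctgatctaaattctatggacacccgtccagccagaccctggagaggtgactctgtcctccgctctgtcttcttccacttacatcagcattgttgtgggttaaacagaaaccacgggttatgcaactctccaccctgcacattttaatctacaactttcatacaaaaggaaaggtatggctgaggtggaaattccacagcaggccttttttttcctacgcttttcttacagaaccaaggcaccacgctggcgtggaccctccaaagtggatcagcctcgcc
Ctsd: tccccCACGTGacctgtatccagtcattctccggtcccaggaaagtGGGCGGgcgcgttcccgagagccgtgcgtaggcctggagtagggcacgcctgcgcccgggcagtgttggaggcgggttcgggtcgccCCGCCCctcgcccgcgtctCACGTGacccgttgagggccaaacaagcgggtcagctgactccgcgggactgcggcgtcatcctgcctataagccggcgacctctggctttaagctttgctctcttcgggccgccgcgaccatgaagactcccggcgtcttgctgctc

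The CACGTG motif was found 245 and 98 bases upstream of the Ctsd start and 236 bases upstream of the Ctsl start, in 2 of the 6 windows. Of 32544 distinct mouse promoter windows of this length, 7.17% held it. The GAAA repeat was found in the Ctss window alone among the 6, with its first base 21 bases upstream of the start, and 3.45% of all windows held it. The GC box was found in 4 of the 6 windows (Ctsc, Ctsd, Ctss and Ctsz), against 35.9% of all windows. The Ctsk window held none of these letters, and no match overlapped a match to another motif. A match describes the sequence only.

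Array medians were 6.32 to 6.44 on the log2 scale, and tumours of the same line correlated at r = 0.983 to 0.989 across clusters. Marker genes of the tissue were checked as mean log2 signals of fixed lists. The mammary epithelial list (Epcam, Cdh1 and 5 keratins) had means of 6.53 to 7.67 per tumour, and no detection values were used, so no marker can be called absent. EMT6.5 replicates 1 and 3 stood apart in 4 skeletal muscle markers, with means of 8.28 and 8.82, whereas EMT6.5 replicate 2 was at 5.56 and the other 12 tumours lay between 5.48 and 6.11. Counts and calls that rest on EMT6.5 were therefore also computed without those tumours, an alternative chosen after the values were seen. This leaves EMT6.5 replicate 2 alone, so a call can be lost there with little change in its difference.

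Of the 10 cathepsins, 9 differed among the 5 lines (limma F test, adjusted p = 1.6e-10 for Ctsc to 0.025 for Ctsz), compared with 43.1% of all clusters. Ctsb did not pass (adjusted p = 0.067). The means of Ctsb, a lysosomal endopeptidase and carboxydipeptidase, spanned 0.29 on the log2 scale over the 5 lines, from 11.66 ± 0.15 in EMT6.5 to 11.95 ± 0.06 in 67NR (SD, n = 3). The widest spans were those of Ctse (3.06), Ctsk (2.25), Ctsc (2.14) and Ctsh (1.37), against a median span of 0.49 over all clusters. Signals of different genes were not set against each other, because probes differ in brightness.

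**Figure D1:**
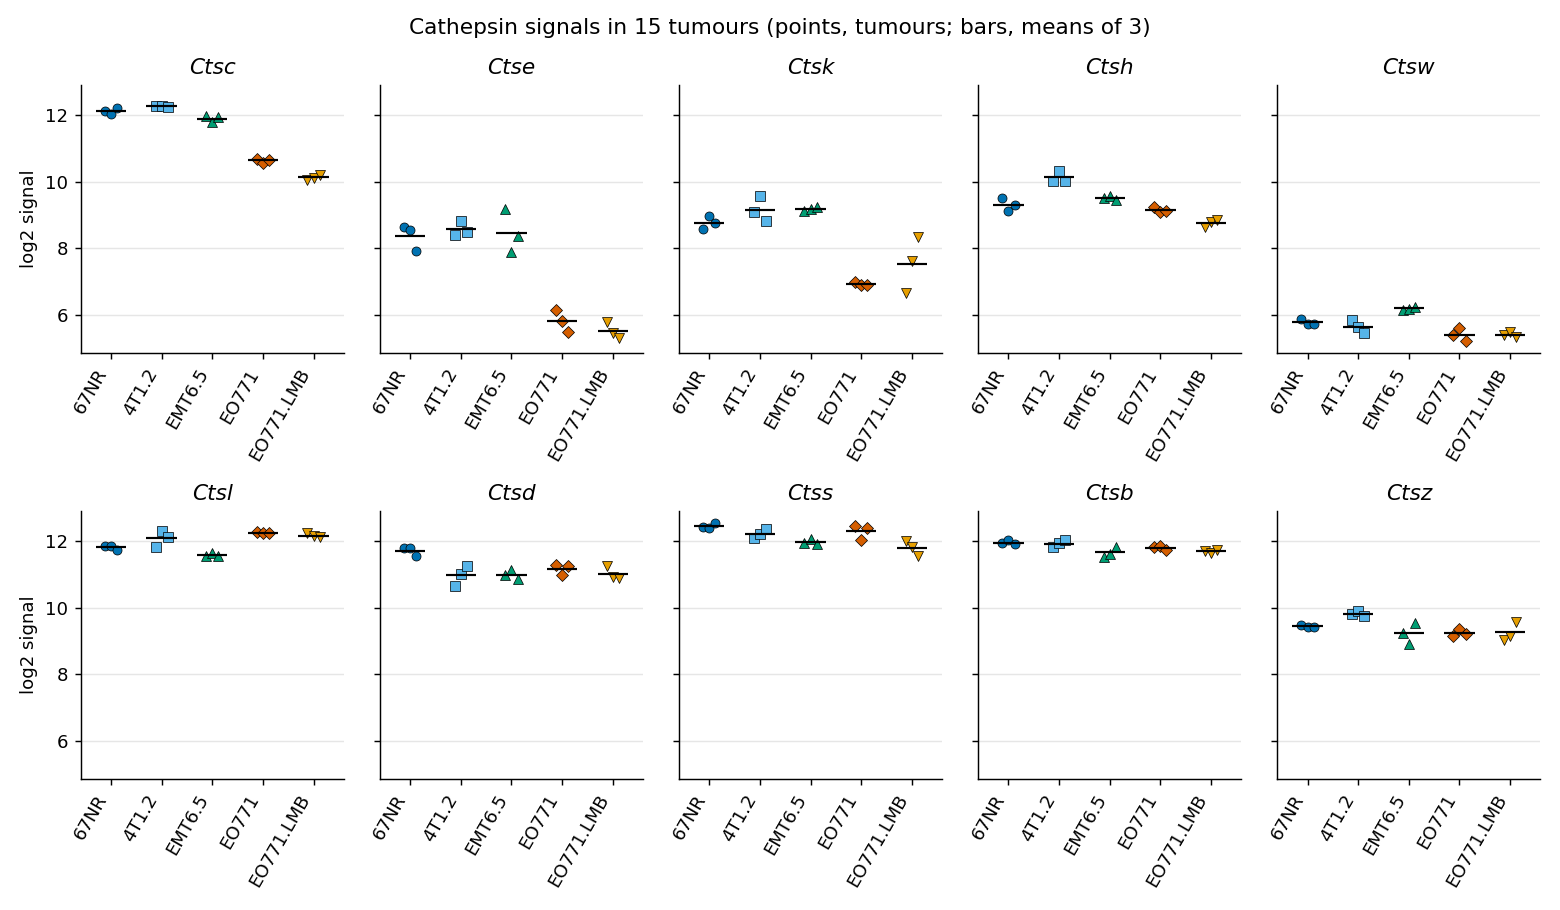
Log2 signal (vertical axis) of each of the 10 cathepsins in each of 15 tumours, grouped by line; each point is 1 tumour and each bar the mean of 3. Ctsc, Ctse and Ctsk lie lower in all 6 EO771 and EO771.LMB tumours than in any of the 9 tumours grown in BALB/c mice. The points of Ctsb overlap between the hosts, though not between every pair of lines.

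The first comparison set the lines grown in C57BL/6 mice (EO771 and EO771.LMB) against those grown in BALB/c mice (67NR, 4T1.2 and EMT6.5). Host strain and tumour line cannot be told apart in it. Its p-values rest on the spread among tumours of a line, not between lines. Whether the probes match the transcripts of both strains equally was not tested for any gene compared between the hosts. Ctsc, Ctse, Ctsk, Ctsh and Ctsw were lower in the C57BL/6 lines and Ctsl was higher, so that 5 of 10 cathepsins fell and 1 rose. Over all clusters, 19.3% were lower and 18.9% were higher. In 3 of the 10 (Ctsc, Ctse and Ctsk) every C57BL/6-line tumour was below every BALB/c-line tumour, as in 5.07% of all clusters, and in none was every one above, as in 7.77%. The median difference of the 10 was -0.36, that of all clusters -0.04.

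Ctsc, the dipeptidyl peptidase that activates the serine proteases of cytotoxic and myeloid granules, was measured at 12.13, 12.05 and 12.23 in the 67NR tumours. The 4T1.2 tumours gave 12.29, 12.27 and 12.26 and the EMT6.5 tumours 11.98, 11.79 and 11.94. The EO771 tumours gave 10.68, 10.58 and 10.67 and the EO771.LMB tumours 10.06, 10.13 and 10.22. All 6 C57BL/6-line tumours were thus below all 9 others. The log2 difference was -1.71 ± 0.06 (SE; adjusted p = 1.1e-11), a signal 3.28-fold lower. The Ctsc promoter above held 1 GC box and neither of the other motifs.

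Ctse, a non-lysosomal aspartyl protease of endosomes known from antigen-presenting cells and gastric epithelium, had the largest difference of the 10. Its log2 signals were 8.65, 8.54 and 7.92 in 67NR, 8.41, 8.81 and 8.50 in 4T1.2, and 9.17, 7.89 and 8.37 in EMT6.5. The EO771 tumours gave 6.16, 5.80 and 5.48, and the EO771.LMB tumours 5.79, 5.46 and 5.29. The groups did not overlap, and the tumours of EMT6.5 were the most scattered (SD 0.65, n = 3). The difference was -2.81 ± 0.18 (SE; adjusted p = 1.5e-08), a signal 7.01-fold lower in the C57BL/6 lines. The C57BL/6-line tumours lay below the array medians, and without detection values it cannot be said whether Ctse was measured above background in them.

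Ctsk, the collagen-degrading cathepsin of osteoclasts that fibroblasts also make, gave 8.57, 8.96 and 8.76 in 67NR, 9.09, 9.58 and 8.81 in 4T1.2, and 9.12, 9.17 and 9.24 in EMT6.5. EO771 tumours were close together at 6.99, 6.91 and 6.89. EO771.LMB tumours were spread over 6.66, 7.63 and 8.34 (SD 0.84), the widest scatter of any cathepsin in any line. The highest of them lay below the lowest BALB/c-line tumour, and the difference was -1.80 ± 0.20 (SE; adjusted p = 3.5e-06). Ctss, its neighbour on chromosome 3, did not pass in the same comparison (-0.17 ± 0.09, adjusted p = 0.14).

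Ctsh, an aminopeptidase, was lower by a smaller amount (-0.69 ± 0.08, adjusted p = 4e-06), and its groups overlapped. The 4T1.2 tumours stood above the rest at 10.04, 10.32 and 10.04, and the 67NR and EO771 tumours, at 9.12 to 9.52 and 9.09 to 9.25, did not differ beyond their spread (0.15 ± 0.12, adjusted p = 0.39). Ctsw, a cathepsin of cytotoxic T and NK cells, was also lower (-0.47 ± 0.08, adjusted p = 0.00015). Its signals ran from 5.22 to 5.59 in the C57BL/6 lines and from 5.46 to 6.25 in the BALB/c lines, with overlap through 4T1.2. All 15 tumours lay below the array medians, so it cannot be said whether Ctsw was measured above background in any of them, and it was not tested where only clusters above the median signal were kept.

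Ctsl, an endopeptidase of nearly all cell types, was the one cathepsin with a higher signal in the C57BL/6 lines (0.39 ± 0.07, adjusted p = 0.00058). EO771 tumours gave 12.28, 12.26 and 12.24, and EO771.LMB tumours 12.24, 12.14 and 12.11, against 11.86, 11.85 and 11.72 in 67NR and 11.55, 11.63 and 11.56 in EMT6.5. Of the 4T1.2 tumours (11.83, 12.32 and 12.13), replicate 2 lay above all 6 C57BL/6-line tumours, so the groups overlapped. Across the 15 tumours Ctsl ran opposite to Ctsw (Pearson r = -0.88), and within lines the correlation of the deviations was -0.28. These correlations share arrays and are descriptions only.

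Ctsb (-0.10 ± 0.06), Ctsd (-0.12 ± 0.10), Ctss (-0.17 ± 0.09) and Ctsz (-0.25 ± 0.10) did not pass. The adjusted p of Ctsz, a carboxypeptidase, was 0.066, and it passed in the same direction without EMT6.5 replicate 2 (-0.30, adjusted p = 0.016) or without EO771.LMB replicate 3 (-0.33, adjusted p = 0.014). With all 15 tumours it passed after quantile normalization (-0.34, adjusted p = 0.014) and when only clusters above the median signal were tested (-0.25, adjusted p = 0.049). The 6 calls held without each tumour in turn and without both EMT6.5 tumours with high muscle marker signal.

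Markers of stromal cells differed between the same groups. Of 16 macrophage markers, 13 were lower in the C57BL/6 lines and none was higher (median -1.24), among them Cd163 (-2.99), Cx3cr1 (-2.92) and Csf1r (-2.30). The mean macrophage marker signal was 9.92 to 10.12 in 67NR, 9.51 to 9.70 in 4T1.2, 8.21 to 8.53 in EO771 and 8.08 to 8.25 in EO771.LMB, and EMT6.5 lay between these, at up to 9.19. Of 10 fibroblast markers, 8 were lower and 1, Pdgfra, was higher (0.81). The mean fibroblast marker signal was 8.66 to 9.43 over the 9 BALB/c-line tumours and 8.01 to 8.40 over the 6 C57BL/6-line tumours. Their part in the cathepsin differences was not tested.

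Over the 15 tumours, Ctsc correlated with the macrophage mean at r = 0.92 and Ctsk with the fibroblast mean at r = 0.93, and Ctse with them at 0.86 and 0.90. Within lines, where the deviations from each line's mean were correlated, the same values were 0.25, 0.49, 0.21 and 0.23. Ctse deviations within lines ran with those of the mean of 13 T and NK cell markers (r = 0.94) and of 5 B cell markers (0.86), whereas over the 15 tumours the same correlations were 0.16 and -0.30. EMT6.5 replicate 1, highest in Ctse, was also the highest of its line in the T and NK cell list (7.09, against 6.21 and 6.74) and in the B cell list (7.13, against 5.40 and 5.27). The T and NK cell and B cell values were the highest within lines for Ctse over 7 related and 13 marker lists. It also gave 0.68 with the erythroid, 0.62 with the adipocyte and 0.55 with the mammary epithelial list. The lowest was -0.46, with the osteoclast list. The within-line values rest on 3 tumours a line.

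**Figure D2:**
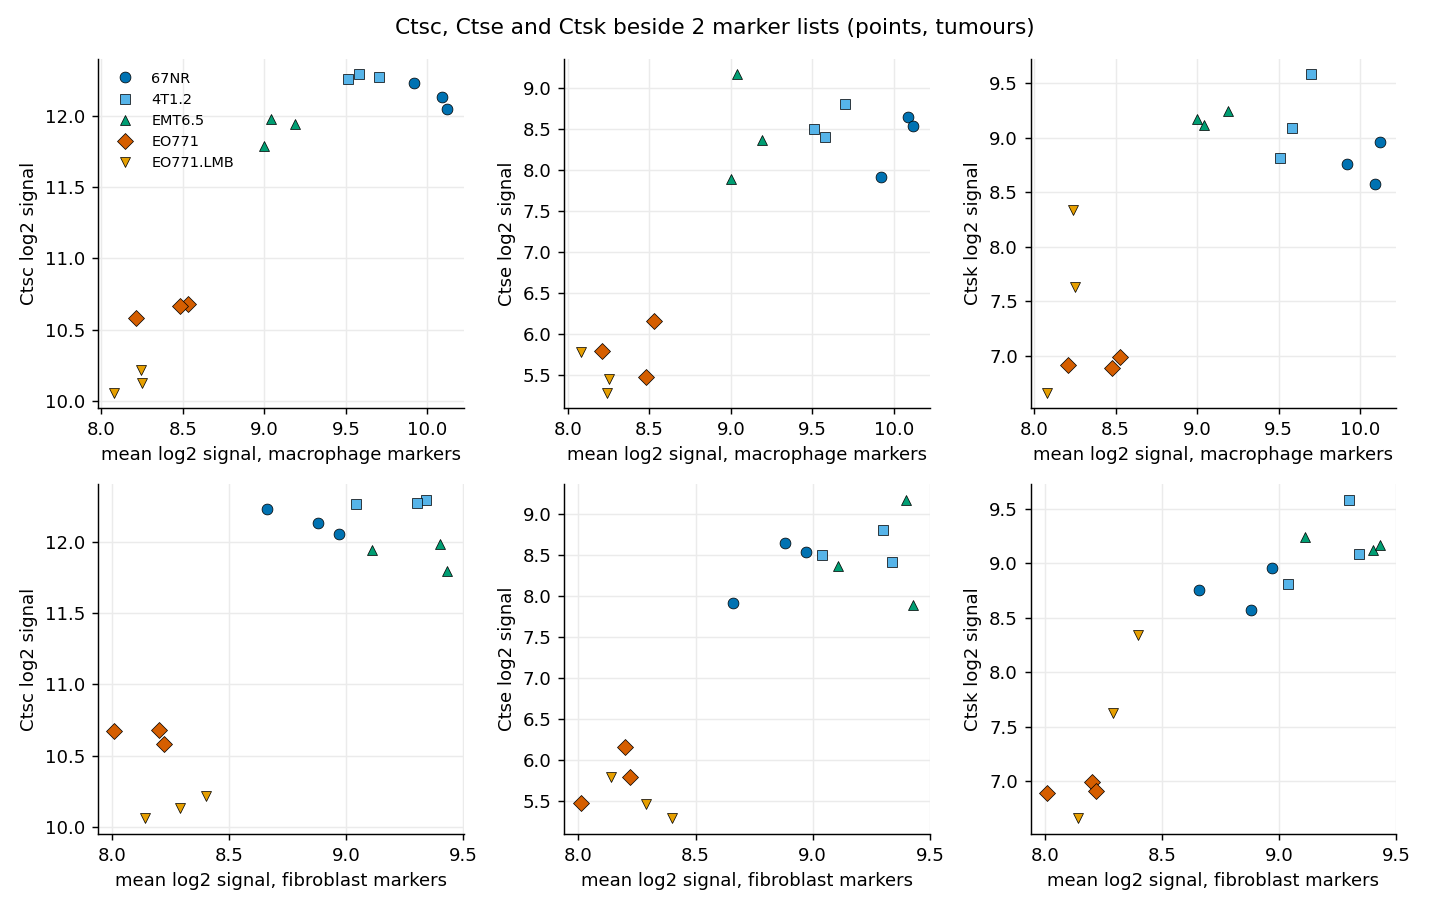
Log2 signal of Ctsc, Ctse and Ctsk (vertical axes) against the mean log2 signal of 16 macrophage markers (upper row) and 10 fibroblast markers (lower row); each point is 1 tumour, coloured by line. The 6 C57BL/6-line tumours form the lower left of each panel, and EO771.LMB tumours differ more among themselves in Ctsk (6.66 to 8.34) than in the fibroblast mean (8.14 to 8.40).

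The comparison of 4T1.2 with 67NR addressed the difference between a metastatic and a non-metastatic line of shared origin. Ctsh was higher and Ctsd lower in 4T1.2, and the other 8 cathepsins did not pass. Over all clusters, 8.69% were higher and 9.12% lower. The groups did not overlap in 3 cathepsins that were higher and 2 that were lower, and in 17.6% and 14.5% of all clusters. The median difference of the 10 was 0.17, that of all clusters 0.05.

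Ctsh gave 9.52, 9.12 and 9.29 in 67NR and 10.04, 10.32 and 10.04 in 4T1.2, without overlap (0.82 ± 0.12, SE; adjusted p = 0.00018), a signal 1.77-fold higher. Ctsd, the main aspartyl protease of the lysosome, gave 11.78, 11.78 and 11.55 in 67NR and 10.66, 11.01 and 11.26 in 4T1.2 (-0.72 ± 0.15, adjusted p = 0.0043), a signal 1.65-fold lower. Both held without each tumour in turn. Ctsd was also lower than in 67NR in each of the other 3 lines, by 0.53 to 0.71 on the log2 scale, and the means of those 3 and of 4T1.2 lay between 10.98 and 11.17. Its promoter, with 2 CACGTG matches, is shown above.

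Of those that did not pass, Ctsz (0.37 ± 0.16, adjusted p = 0.12) and Ctsl (0.28 ± 0.11, adjusted p = 0.11) had 95% intervals from 0.04 to 0.71 and from 0.04 to 0.52. The 3 Ctsz values of 4T1.2 (9.80, 9.89 and 9.75) were all above those of 67NR (9.49, 9.43 and 9.41). Ctsl passed without 4T1.2 replicate 1 (0.41, adjusted p = 0.012). The interval of Ctsc ran from -0.05 to 0.33 and that of Ctsb from -0.24 to 0.18, whereas that of Ctsk was wide (-0.25 to 1.05).

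Of 6 osteoclast genes, which Ctsk belongs with in bone, Mmp9 (1.64), Ocstamp (1.45) and Acp5 (1.22) were higher in 4T1.2, while the Ctsk difference was 0.40 ± 0.30. Of 9 neutrophil markers, 4 were higher, with means of 5.78 to 6.01 in 67NR and of up to 7.05 in 4T1.2, where all 3 tumours were above 67NR. Of 16 macrophage markers, 6 were lower and 1 was higher. Their part in the Ctsh and Ctsd differences was not tested.

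The comparison of EO771.LMB with EO771 addressed the other metastatic variant and its parent. No cathepsin passed with limma, where 0% of clusters were higher and 0.0197% (7 clusters) lower. At an unadjusted p under 0.05, 3 cathepsins were lower, and 2952 clusters were called in all. The one-way analysis of variance that the methods name gave 0 cathepsins after adjustment, and limma with an intensity trend and a robust prior gave 1, Ctsc (adjusted p = 0.032).

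Ctsc had the clearest separation. All 3 EO771.LMB tumours (10.06 to 10.22) were below all 3 EO771 tumours (10.58 to 10.68), a difference of -0.51 ± 0.09 (SE; 95% interval -0.70 to -0.32, adjusted p = 0.076). Ctss, the cathepsin that trims the invariant chain of MHC class II, gave 12.45, 12.03 and 12.41 in EO771 tumours. The EO771.LMB tumours gave 12.01, 11.81 and 11.55. Its groups did not overlap either (-0.50 ± 0.14, interval -0.80 to -0.21, adjusted p = 0.28). Ctsh gave 9.25, 9.09 and 9.12 against 8.63, 8.79 and 8.86 (-0.39 ± 0.12, interval -0.65 to -0.14, adjusted p = 0.36). Ctsb was the fourth cathepsin without overlap, by a smaller difference (-0.12 ± 0.10). Over all clusters, 6.89% were lower without overlap and 7.80% higher.

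Ctsk ran the other way without passing (0.61 ± 0.30, interval -0.04 to 1.26, adjusted p = 0.64), since EO771.LMB replicate 1 (6.66) was below every EO771 tumour while replicates 2 and 3 were above. Without EO771.LMB replicate 1 the difference was 1.05, and without replicate 3 it was 0.21. The differences of Ctsz and Ctsw were 0.01 ± 0.16 and 0.00 ± 0.12. None of the 7 measured MHC class II genes passed, although their median difference was -0.96, and none of the 16 macrophage markers passed (median -0.25).

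The changes of the pairs differed from each other in 2 cathepsins, as tested by an interaction term that called 10.2% of clusters. Ctsh was higher in 4T1.2 than in 67NR by 0.82 while its EO771 pair gave -0.39, a difference of 1.22 ± 0.17 (SE; adjusted p = 0.00025). For Ctsc, 4T1.2 minus 67NR was 0.14 and EO771.LMB minus EO771 was -0.51, a difference of 0.65 ± 0.13 (adjusted p = 0.0038). For Ctsd the differences were -0.72 and -0.14, and their difference did not pass (-0.58 ± 0.22, adjusted p = 0.12).

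**Figure D3:**
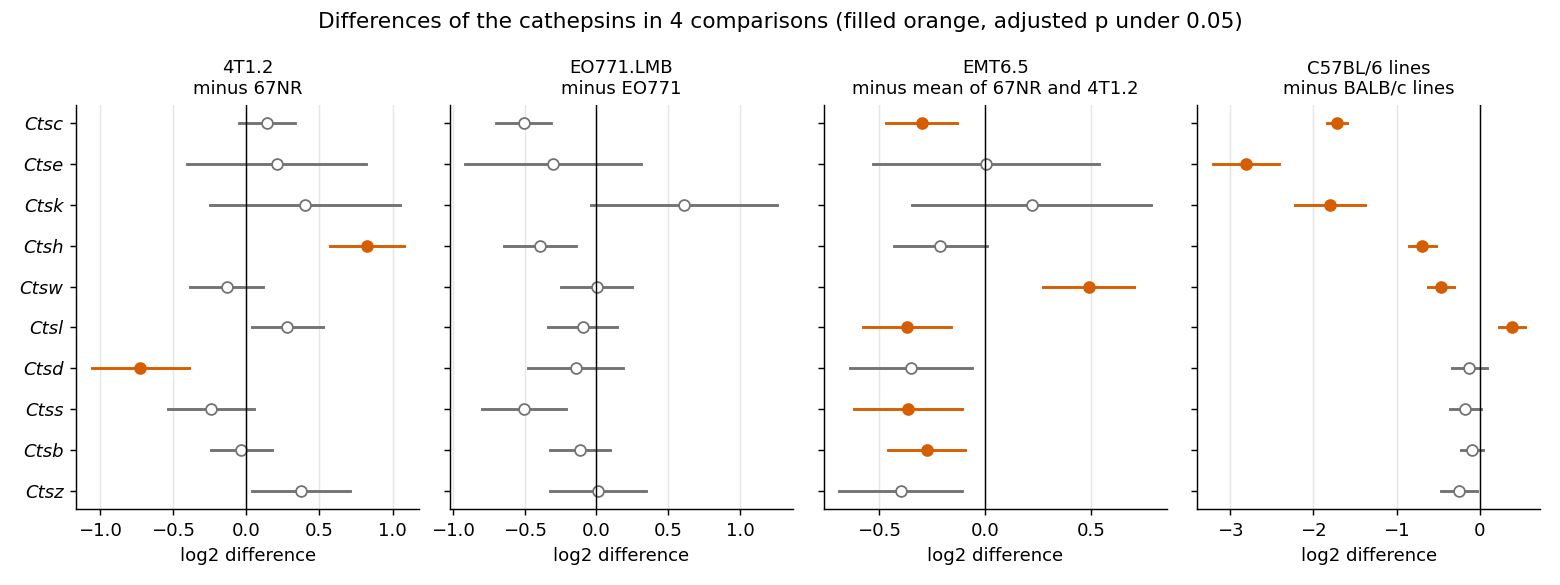
Log2 differences (horizontal axes, whose ranges differ between panels) of the 10 cathepsins in 4 comparisons, with 95% intervals from the limma fit; filled orange points passed an adjusted p of 0.05. The largest differences are those of Ctse, Ctsk and Ctsc between the C57BL/6 and BALB/c lines, and no point is filled for EO771.LMB against EO771.

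EMT6.5, the third line grown in BALB/c mice, was set against the mean of 67NR and 4T1.2. Ctsw was higher, and Ctsb, Ctsc, Ctsl and Ctss were lower, so 1 cathepsin rose and 4 fell. Over all clusters, 9.59% were higher and 8.33% lower. The groups did not overlap in 1 cathepsin that was higher and 3 that were lower, and in 7.41% and 5.94% of all clusters. These differences were small, and most of the calls depended on single tumours.

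Ctsw gave 6.16, 6.17 and 6.25 in EMT6.5, above all 67NR (5.72 to 5.88) and 4T1.2 (5.46 to 5.83) tumours. The difference was 0.49 ± 0.10 (SE; adjusted p = 0.0034), and it held without each tumour in turn (adjusted p up to 0.021). None of the 13 T and NK cell markers passed in the same comparison (median -0.05), with differences from -0.51 (Ncr1) to 0.43 (Klrk1). Prf1, the perforin of cytotoxic cells, gave 0.03. Of its 3 clusters the brightest was used, with line means of 12.83 to 13.06 against a highest value of 13.98 on any array. Whether so bright and even a signal reads perforin cannot be said. As above, the Ctsw signals lay below the array medians.

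Ctsl (-0.37 ± 0.10, adjusted p = 0.016) gave 11.55 to 11.63 in EMT6.5, below all 67NR and 4T1.2 tumours. The call ended without EMT6.5 replicate 1 (adjusted p = 0.059) or 3 (0.06). Ctsc (-0.30 ± 0.08, adjusted p = 0.014) was below them as well, and its call ended without EMT6.5 replicate 2 (-0.24, adjusted p = 0.094). Ctsb (-0.28 ± 0.08, adjusted p = 0.035) and Ctss (-0.36 ± 0.12, adjusted p = 0.047) were close to the threshold. The Ctsb call ended without 67NR replicate 1 or 2, 4T1.2 replicate 2 or 3, or EMT6.5 replicate 1 or 2 (adjusted p up to 0.17). The Ctss call ended without any one of the 67NR or EMT6.5 tumours or of 4T1.2 replicates 2 and 3 (adjusted p up to 0.15). The number of called cathepsins ranged from 2, without EMT6.5 replicate 1 or 2, to 6.

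Without the EMT6.5 tumours of high muscle marker signal, replicates 1 and 3, the calls made with all tumours did not hold. The lone EMT6.5 tumour is then assumed to vary like the other lines. Of the 5 called with all tumours, Ctsb gave -0.31 (-0.28 with all tumours), Ctsc -0.42 (-0.30), Ctsl -0.32 (-0.37), Ctss -0.29 (-0.36) and Ctsw 0.46 (0.49). Ctsz, which had not passed with all tumours (-0.40, adjusted p = 0.056), gave -0.72. Of 16 macrophage markers, 13 were lower in EMT6.5 (median -0.62). Without those tumours the median was -0.69, and some of these calls were lost. The part of macrophages in the lower cathepsin signals was not tested.

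For each cathepsin the lines were ordered by their mean, and 6 of 40 neighbouring pairs in these orders differed beyond their spread. The orders come from the same values, and no share over all clusters is given, so the count is a description only. The 3 BALB/c lines led the order for Ctsc, Ctse and Ctsk without differing among neighbours. The step to the C57BL/6 lines was 1.26 from EMT6.5 to EO771 for Ctsc, 2.55 from 67NR to EO771 for Ctse and 1.22 from 67NR to EO771.LMB for Ctsk (adjusted p = 9.1e-08, 7.7e-06 and 0.0068). The other steps that passed were 4T1.2 over EMT6.5 for Ctsh (0.62, adjusted p = 0.0019), 67NR over EO771 for Ctsd (0.53, adjusted p = 0.018) and EMT6.5 over 67NR for Ctsw (0.42, adjusted p = 0.021). Without the EMT6.5 tumours of high muscle marker signal, the step of Ctsc held (1.14, adjusted p = 6.3e-05), while those of Ctsh (0.57, adjusted p = 0.075) and Ctsw (0.40, adjusted p = 0.22) did not pass. No neighbours differed for Ctsb, Ctsl, Ctss or Ctsz.

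Between single lines, most calls lay across the host strains. Against 67NR, 6 cathepsins differed in EO771 and 8 in EO771.LMB, where 27.3% and 28.8% of clusters were called. Against 4T1.2 the counts were 5 and 6, beside 30.4% and 30.6% of clusters, and against EMT6.5 they were 6 and 6, beside 23.7% and 24.3%. Within the BALB/c lines, EMT6.5 differed from 67NR in 3 cathepsins (18.0% of clusters) and from 4T1.2 in 5 (16.3%). Without the EMT6.5 tumours of high muscle marker signal, these counts were 0 and 2 (9.37% and 8.88% of clusters), and those of the EO771 and EO771.LMB lines against EMT6.5 were 5 and 5 (13.8% and 15%). These pairs share tumours and are not independent of each other.

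Inhibitors of cysteine cathepsins differed in both directions between 4T1.2 and 67NR. Of 12 cystatins, stefins and Ctla2 proteins, 5 were higher and 2 lower in 4T1.2 than in 67NR. The stefins BC100530 (3.13 ± 0.30, SE; adjusted p = 3.3e-06), Stfa2l1 (2.10 ± 0.15, adjusted p = 1.5e-07), Stfa1 (1.66 ± 0.18) and Stfa2 (0.96 ± 0.11) were higher. These mouse stefins are near-identical copies, so the array may not tell them apart and they are not independent counts. Their 67NR means lay below the array medians, so it cannot be said whether they were measured above background there. Cst3, the main secreted cystatin, was lower (-0.63 ± 0.11, adjusted p = 0.0011), as was Ctla2b, a propeptide-like inhibitor (-1.37 ± 0.11). Of the 9 neutrophil markers given above, 4 were also higher in 4T1.2, namely S100a8 (2.03), S100a9 (1.85), Mmp8 (1.17) and Retnlg (2.41). The other 5 did not pass, with Cxcr2 at 0.55, Ltf at 0.47, Ngp at 0.28, Csf3r at -0.13 and Camp at -0.20. The paper reports S100a8 and S100a9 transcripts as raised in isolated tumour cells of the metastatic variants too, so their signals need not come from neutrophils alone. The part of neutrophils in the stefin differences was not tested.

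In the C57BL/6 lines, 8 of the 12 inhibitors were lower and none was higher, led by Ctla2a (-1.79 ± 0.24), BC100530 (-1.64 ± 0.19), Ctla2b (-1.41 ± 0.07) and Cst3 (-1.30 ± 0.07). The means of Cst3 fell from 11.83 in 67NR, 11.20 in 4T1.2 and 10.98 in EMT6.5 to 10.08 in EO771 and 9.99 in EO771.LMB. All 5 of the lower stefins had their highest mean in 4T1.2. In every other line their means lay below the array medians, and that of Stfa3 did so in 4T1.2 too. Whether they were measured above background there cannot be said. The mean of Stfa2l1 was 7.98 in 4T1.2 and between 5.58 and 5.88 in the other 4 lines, and that of BC100530 was 8.83 in 4T1.2 and between 4.88 and 5.70 in the others. Without the 4T1.2 tumours, an alternative chosen after the values were seen, 3 inhibitors were called in place of 8 (Cst3, Ctla2a and Ctla2b). BC100530 then gave -0.55 (adjusted p = 0.075), Stfa3 -0.31 (0.07), Stfa1 -0.14 (0.4), Stfa2 0.00 (1) and Stfa2l1 0.08 (0.66). Cstb, stefin B of the cytosol, did not pass in either comparison (0.30 ± 0.13 and 0.06 ± 0.08).

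**Figure D4:**
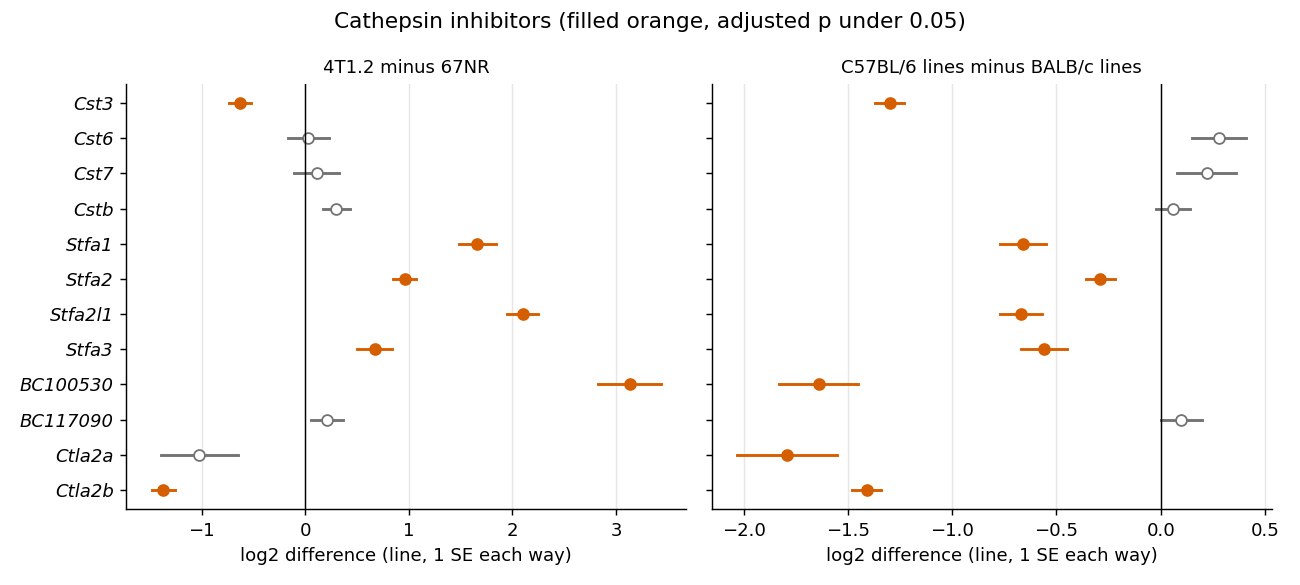
Log2 differences (horizontal axes, with ranges that differ) of 12 cathepsin inhibitors in 2 comparisons; lines are 1 SE each way and filled orange points passed an adjusted p of 0.05. Stfa1, Stfa2, Stfa2l1, Stfa3 and BC100530 lie to the right in 4T1.2 against 67NR and to the left in the C57BL/6 lines, Cstb and BC117090 are open points in both, and Cst3 and Ctla2b lie to the left in both.

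Of 19 other cathepsins and lysosomal peptidases, 7 were lower and 1 higher in the C57BL/6 lines. The lower ones were led by Ctso (-1.59 ± 0.12, adjusted p = 8.3e-08), Ctsf (-0.86 ± 0.09), both of the papain-like family, Tpp1 (-0.76 ± 0.07), a tripeptidyl peptidase, and Ctsa (-0.75 ± 0.11), a serine carboxypeptidase. Dpp7 was higher (0.72 ± 0.10). In 4T1.2 against 67NR, Ctsg (-0.74 ± 0.18) and Lgmn (-0.30 ± 0.10) were lower and none was higher. Ctsg is a serine protease of granules despite its name, and its line means all lay below the array medians. Lgmn is the legumain that processes cathepsin precursors. In EMT6.5, 6 of the 19 were lower, led by Tpp1 (-1.12) and Dpp7 (-0.75). Without the EMT6.5 tumours of high muscle marker signal there were 3 (Tpp1, Ctsa and Lgmn), and Dpp7 did not pass (-0.75, adjusted p = 0.07).

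The rest of the lysosome moved in both directions. Of 40 other hydrolases and membrane proteins, 11 were higher and 15 lower in the C57BL/6 lines, with Arsb (-3.36), Galc (-2.28) and Gm2a (-1.36) furthest from 0, and 5 were higher and 11 lower in 4T1.2 than in 67NR, led by Ids (-1.36). Of 17 subunits of the proton pump that acidifies the lysosome, 6 were higher and 4 lower in the C57BL/6 lines. In 4T1.2 against 67NR, 1 of them was higher and 4 were lower, with Atp6v1a at -0.98. Among 10 genes of sorting and transcription, 2 were higher and 2 lower in 4T1.2 than in 67NR. Igf2r, the large mannose 6-phosphate receptor that carries cathepsin precursors, was higher (2.58 ± 0.12, adjusted p = 1.2e-09), as was Gnptab (0.38 ± 0.10, adjusted p = 0.012), a subunit of the enzyme that starts the mannose 6-phosphate tag. Tfeb (-0.67 ± 0.14) and Tfe3 (-0.49 ± 0.12), which bind CACGTG-containing elements in lysosomal genes, were lower. The Tfeb mean was 6.48 in 67NR and below the array medians in every other line. Whether Tfeb was measured above background there cannot be said.

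Genes that act with single cathepsins gave a mixed picture. Of 7 granule proteases, several of which Ctsc activates, Gzma (1.31 ± 0.12) and Gzmb (1.31 ± 0.21) were higher in the C57BL/6 lines, where Ctsc was lower, and Ctsg, Cma1 and Tpsab1 were lower. In 4T1.2 against 67NR, Gzma (-1.71 ± 0.18), Gzmb (-1.31 ± 0.33) and Ctsg were lower, while Ctsc did not pass. All line means of Ctsg, Cma1 and Tpsab1 lay below the array medians, so it cannot be said whether they were measured above background. Of 7 genes of MHC class II processing, in which Ctss and Ctsl act, H2-DMa (-1.98 ± 0.14), Cd74 (-1.58 ± 0.20) and Ciita (-0.71 ± 0.16) were lower and H2-Ab1 (1.62 ± 0.25) was higher in the C57BL/6 lines. None of the 7 passed in 4T1.2 against 67NR or in EMT6.5. Between the EO771 lines, none of the 7 related lists held a called gene.

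The genes whose signals ran most closely with each cathepsin over the 15 tumours were sought among 4555 genes whose line means spanned at least 1 on the log2 scale. The closest to Ctsc were Cp (Pearson r = 0.988), Trim44 and Ifnk, and the closest to Ctse were Rgs2 (0.973), Aox1 and Cgnl1. For Ctsk they were Bcl9 (0.944), EG667842 and Nudt4, for Ctsh Osmr (0.952), Lama4 and Zfp503, and for Ctsl Gpnmb (0.927), Pus3 and Slc38a1. For Ctsb they were Tcfec (0.894), Itga1 and Slc43a2, and for Ctsd Klrg1 (0.907), Bbs9 and the gene listed as 382277. For Ctss they were Ms4a4a (0.845), S100a7a and 9930111J21Rik, for Ctsz Bloc1s1 (0.893), Aldh3a2 and Zfyve21, and for Ctsw D4Bwg0951e (0.942), Mprip and Mras. These were the highest of many correlations. Within lines the 30 genes gave r from -0.24 (Cp and Ctsc) to 0.83 (Bbs9 and Ctsd, Aldh3a2 and Ctsz), with a median of 0.46.

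Among the cathepsins themselves, Ctsc and Ctse ran most closely over the 15 tumours (r = 0.96), followed by Ctse and Ctsk (0.85) and Ctsc and Ctsk (0.84). Within lines the same pairs gave 0.07, -0.18 and 0.37. Ctsd and Ctss gave 0.72 over all tumours and 0.72 within lines.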

How the data were processed

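Amplified RNA of whole tumours was measured on Mouse Gene 1.0 ST arrays (Affymetrix). The authors deposited log2 signals per transcript cluster after background correction, normalization and summarization. The methods name GCRMA for these steps, whereas the submitters' notes name Partek 6.6 and RMA without a version, so the algorithm is not settled; the genome build is not given in the sources used here. The series table and the authors' workbook hold the same values (0 of 533340 differ). Another 30 per-sample columns of the workbook were not used, and neither were its columns of the authors' own fold changes and p-values.

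A linear model with line as its term was fitted to all 15 tumours and 35556 clusters without filter or further normalization (limma 3.58.1, R 4.3.3). The p-values are limma's, two-sided, adjusted by Benjamini-Hochberg within each comparison over every cluster, and called under 0.05. Signals per gene are those of its brightest cluster. The related and marker lists held 204 genes. Signals were found for 203, of which 10 carry an older name in the annotation. The cathepsins, the lists and the rule for named genes (all members, up to 4 called genes per list and comparison, and the 3 genes most like each member) were chosen with earlier results of these data known. Genes outside this rule, such as single markers, were named after their values were seen. The labels number the tumours by mouse, and nothing further says how the samples were drawn. The p-values set differences against the spread among tumours of the same line. They hold no spread between lines, and in the host comparison some lines share an origin. Precision is limited by the number of arrays. The steps were tested on simulated data.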

Additional observations from a re-analysis of the deposited data

Results flagged for a closer look

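The change from the less to the more metastatic line differed between the pairs for 2 cathepsins, by a test of the difference itself. For Ctsh the change in 4T1.2 against 67NR exceeded that in EO771.LMB against EO771 by 1.22 on the log2 scale (SE 0.17, adjusted p = 0.00025). For Ctsc it did so by 0.65 (SE 0.13, adjusted p = 0.0038). Both held without each tumour in turn, with values from 1.12 to 1.32 and from 0.61 to 0.70.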

How the results depend on the processing

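The numbers of called cathepsins stayed within 1.5 times their main value under the other table, other scalings, filter, test, prior and sample choices, except as follows. At an unadjusted p under 0.05, 4 were called in 4T1.2 against 67NR, 3 in EO771.LMB against EO771 and 4 for the difference between the pairs. Of all 35556 clusters, 10498, 2952 and 7835 were called there. At the same threshold 11 neighbouring pairs differed, for which no share over all clusters is given. For EO771.LMB against EO771, the robust prior with an intensity trend gave 1. For EMT6.5, 3 were called after centring on array medians and 3 with only the types compared. The EMT6.5 calls made with all tumours did not hold without both EMT6.5 tumours with high muscle marker signal. That setting leaves a lone EMT6.5 tumour. Leaving out 1 tumour gave 2 to 6 calls for EMT6.5, 2 to 3 for 4T1.2 and for the difference between the pairs, 6 to 7 for the host comparison, 0 for the EO771 pair and 4 to 7 neighbouring pairs. Cathepsin differences that turned sign had not passed with all tumours or after turning. Leaving out 1 tumour gave -0.08 to 0.02 for Ctsb and -0.02 to 0.35 for Ctse in 4T1.2 against 67NR, -0.34 to 0.30 for Ctse in EMT6.5, and -0.15 to 0.12 for Ctsz and -0.09 to 0.10 for Ctsw in EO771.LMB. Quantile normalization gave -0.03 for Ctse in EMT6.5 and -0.02 for Ctsw in EO771.LMB, and leaving out both EMT6.5 tumours gave -0.58 for Ctse. Without the 4T1.2 tumours, 3 inhibitors were called between the hosts in place of 8, and Stfa2 and Stfa2l1, called before, gave 0.00 and 0.08. The cause was not tested. Over the single cathepsin differences and settings, 713 kept direction and side of the threshold, 28 lost it, 11 gained it and 16 turned sign.

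Tumours with the same number did not deviate together (r from -0.17 to 0.15, with 4 of 30 pairs over 0.1), so the number was not taken as a pairing. With it as a block, 4 cathepsins were called for EMT6.5 in place of 5, since Ctss lost its call (adjusted p = 0.066), and the other counts did not change.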
